A study of Drosophila melanogaster with 2 samples.

Results

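The nuclear genes for subunits of the oxidative phosphorylation complexes were examined for binding of a GFP-tagged protein in Drosophila melanogaster embryos. Members were all nuclear protein-coding genes whose symbol starts with ND-, Sdh, UQCR-, COX or ATPsyn, which gave 88 of the 13945 protein-coding genes on the chromosome arms of the peak lists. Of these, 63 encode subunits, 24 are additional copies of a subunit gene whose symbol ends in L (called L copies here), and 1, Sdhaf3, encodes an assembly factor of complex II. The prefixes did not catch every subunit: blw, sun, levy and cype, for example, carry names of their own and were counted with the other genes of the pathway.

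Embryos of both sexes, 0 to 24 h old, came from the strain side-MiMIC-GFP, in which an eGFP exon in an intron makes a fusion of the host gene's product. The strain and the fusion are called Side in the labels, but the same labels give Sidpn as the target of the insertion, and these are different genes. Chromatin of whole embryos was sonicated to 200 to 800 bp and precipitated with anti-GFP, per the labels' description, while their antibody field names Side. The data are 2 biological replicates of this 1 strain, with no second condition, and whole embryos mix all cell types, so binding in a few cells cannot be told apart from weak binding in many.

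Oxidative phosphorylation is carried out by the respiratory chain and the ATP synthase of the inner mitochondrial membrane. Complex I oxidises NADH, complex II oxidises succinate, complex III passes electrons from ubiquinol to cytochrome c, complex IV passes them to oxygen, and complex V makes ATP from the proton gradient. Most subunits are encoded in the nucleus and are made in nearly all cells, while many of the duplicated subunit genes in flies are known for expression in the testis.

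Peaks were taken from lists of 30000 candidates for replicate 1, replicate 2 and both pooled, which hold strong and weak regions. The 4097 peaks past the authors' irreproducible discovery rate (IDR) threshold, called thresholded below, are the strongest of the pooled list and have a signal of at least 81.5. Signal is a value of the authors' peak caller on an unstated scale. It is given for the pooled list and then for each replicate, from the strongest peak of that list whose summit was no more than 500 bp away from any transcript start of the gene. The weakest listed signal was 18.8 in the pooled list, 12.5 in replicate 1 and 9.48 in replicate 2, so a gene with no candidate may still have had signal below these levels. Read depth is unknown.

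Peaks at the members were divided between the subunit genes and the L copies. A candidate lay at 60 of the 88 members (68.2%), against 55.6% of all protein-coding genes. A thresholded peak lay at 17 (19.3%), against 19.6% of all protein-coding genes. Among genes with a candidate the thresholded share was 28.3% for the members and 35.2% for all protein-coding genes. The median signal over the 60 members was 58.7, with quartiles of 36.9 and 84.3, and the median over the 7757 protein-coding genes with a candidate was 60.1. Over the 63 subunit genes alone the shares were 88.9% with a candidate and 27% with a thresholded peak. No test was made on these counts. Every one of the 17 thresholded peaks lay at a subunit gene, and none at an L copy or at Sdhaf3.

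**Figure D1:**
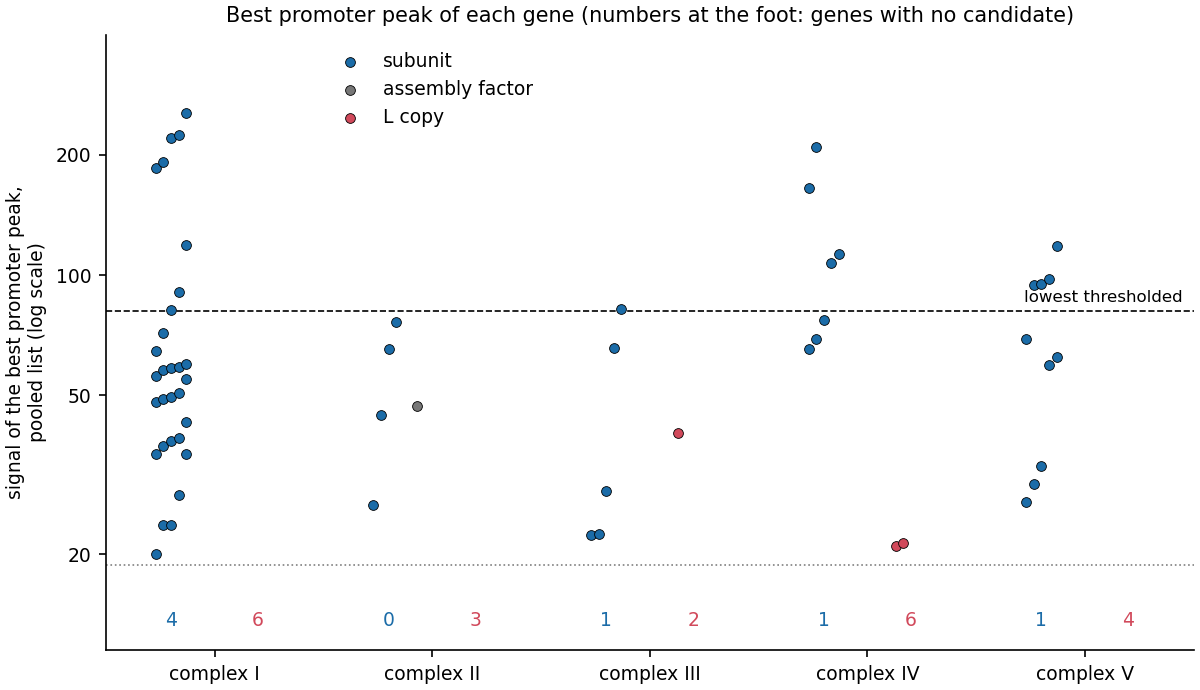
Signal of the best promoter peak in the pooled list (log scale) for each member, by complex; each point is 1 gene, the dashed line is the lowest thresholded signal of 81.5, the dotted line is the lowest listed signal of 18.8, and the figures at the foot count genes with no candidate. All points above the dashed line are subunit genes of complexes I, III, IV and V, and 21 of the 24 L copies have no candidate.

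Complex I, the NADH dehydrogenase, has 40 members here, of which 34 are subunits and 6 are L copies. A candidate lay at 30 of the 34 subunits and a thresholded peak at 8, which is 26.7% of those with a candidate, against 35.2% of all protein-coding genes with one. The 8 fell to 3 with each peak given to its nearest gene, to 3 where the peak had to overlap the start site and to 2 with shared peaks left out. Their median signal was 55.5 and the highest was 254. The strongest member of all was ND-ASHI (FBgn0029888, X, 6677262 to 6679118), a gene for a membrane-arm subunit, with a pooled signal of 254, and 122 and 132 in replicates 1 and 2. ND-MWFE (FBgn0085468), another membrane-arm subunit gene, had 224, with 127 and 98.6 in the replicates. ND-51 (FBgn0031771, 2L, 6060842 to 6062757) encodes the subunit that binds NADH and FMN, and it had 220, with 122 and 96.8. Its partner in the NADH-binding module, ND-24 (FBgn0030853, X, 17632089 to 17633509), had 192, with 79.9 and 119. The third core subunit gene of that module, ND-75, had no pooled candidate and weak ones of 18.3 and 14.8 in the replicates. The core genes of the module were thus at both ends of the signals of the complex. ND-42 (FBgn0019957, 3R, 22027709 to 22029393), an accessory subunit gene, had 185, with 128 and 56.5. ND-B17 (FBgn0001989, 2L, 15749319 to 15751078) had 119, with 78.9 and 48.6. ND-SGDH (90.8) and ND-13B (81.9) completed the thresholded set.

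The sequence under 3 of these summits is shown because they are among the strongest members and the summit lies outside any annotated exon. At COX5A and ND-42, which were also considered, the summit fell within an annotated exon and no sequence is given. ND-MWFE, the second strongest member, was not considered for display. Sequence was read from the Release 6 genome (dm6) on the strand of the named gene, 5′ to 3′. The 21 capitals mark the summit base and the 10 bases on either side of it.
ND-ASHI (chrX:6679231-6679530, minus strand): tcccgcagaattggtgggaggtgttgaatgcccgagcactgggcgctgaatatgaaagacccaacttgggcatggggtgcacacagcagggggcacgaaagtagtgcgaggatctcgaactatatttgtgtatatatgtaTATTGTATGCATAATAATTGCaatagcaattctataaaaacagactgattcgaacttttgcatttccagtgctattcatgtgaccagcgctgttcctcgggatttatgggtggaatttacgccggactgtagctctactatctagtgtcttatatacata
ND-51 (chr2L:6062758-6062988, minus strand): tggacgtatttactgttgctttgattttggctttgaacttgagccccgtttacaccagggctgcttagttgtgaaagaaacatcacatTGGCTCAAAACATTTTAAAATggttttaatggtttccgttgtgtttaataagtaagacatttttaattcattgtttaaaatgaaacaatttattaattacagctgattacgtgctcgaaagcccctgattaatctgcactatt
ND-24 (chrX:17632180-17632253, plus strand): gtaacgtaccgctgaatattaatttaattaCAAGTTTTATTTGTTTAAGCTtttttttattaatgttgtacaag
These stretches were 56%, 66.2% and 77% A and T. Of the 10 motifs searched on both strands, the first and the second held CACNAG, a site type of HES-family repressors, and CCAAT, and the third held none. CACNAG is short and common, and it was found within 100 bases of 26.2% of the 6183 candidate summits at protein-coding promoters and of 37.5% of the 56 at subunit genes. In the promoters the shares were closer, at 29.7% of all protein-coding genes and 31.7% of the 63 subunit genes.

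Complex II, succinate dehydrogenase, had a candidate at all 4 of its subunit genes and a thresholded peak at 0, where 35.2% of all protein-coding genes with a candidate had one. With so few genes the count set nothing apart, and it became 1 within 1000 bp (SdhA) and 1 in the strongest peaks of either replicate alone. SdhD, a gene for a membrane anchor, had a pooled signal of 76.4, with 50.8 and 29.3 in replicates 1 and 2. SdhC, the gene for the other anchor, had 65.4, with 32.4 and 51.5. SdhB, for the iron-sulfur subunit, had 44.7, with 41.3 and 18, and SdhA, for the flavoprotein, had 26.5, with 13.8 and 15.4. The anchor genes were thus above the catalytic subunit genes in the pooled list, but in replicate 1 SdhB (41.3) was above SdhC (32.4). The pooled peak of SdhC is shared with Tctp, on the opposite strand, whose start is 398 bp from that of SdhC. Its summit lay 322 bp upstream of SdhC, nearer to Tctp, so this signal cannot be given to SdhC alone. Each anchor gene was among the 4097 strongest peaks of a different replicate. Sdhaf3 had 47.0, with 19.8 and 18.

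Complex III, the cytochrome bc1 complex, has 9 members, and 5 of its 6 subunit genes had a candidate. A thresholded peak lay at 1 of the 5 (20%), against 35.2% of all protein-coding genes with a candidate. The thresholded one was UQCR-C2 (FBgn0250814, 3L, 16584124 to 16586111), a core protein gene, at 82.2, with 45.7 and 40.3 in the replicates. This peak was close to the limit on every scale, with ranks of 4052, 4069 and 4042. UQCR-C1, the gene for the other core protein, had 22.4, with 14.0 and 11.3. UQCR-14 had 65.7, UQCR-6.4 had 28.8 and UQCR-Q had 22.5. The median over the 5 was 28.8, the lowest of the complexes.

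Complex IV, cytochrome c oxidase, had the highest median of the complexes, 107 over the 7 of 8 subunit genes with a candidate. The median over all protein-coding genes with a candidate was 60.1. A thresholded peak lay at 4 of the 7 (57.1%), against 35.2% of all genes with a candidate. All 7 peaks were shared with another protein-coding gene. Over all genes with a shared candidate the median was 74.6 and 45.3% were thresholded. The 4 of complex IV fell to 2 with each peak given to its nearest gene and to 0 with shared peaks left out. COX5A (FBgn0019624, 3R, 11819359 to 11820299) had 209, with 124 and 102 in replicates 1 and 2. COX6B (FBgn0031066, X, 19740537 to 19744335) had 165, with 86.8 and 75. COX5B (FBgn0031830, 2L, 6557800 to 6559308) had 113, with 70.0 and 42.3, and COX7B (FBgn0040793, 3L, 17425477 to 17426282) had 107, with 45.7 and 58.2. Below the threshold were COX8 at 77.0, COX7A at 69.2 and COX7C at 65.2. COX4 stood apart from these, with no pooled or replicate 1 candidate and 10.1 in replicate 2.

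Complex V, the ATP synthase, had a thresholded peak at 4 of its 10 subunit genes with a candidate, in a range from 94.7 to 118. This is 40%, near the 35.2% of all protein-coding genes with a candidate. The 4 fell to 1 with shared peaks left out. ATPsynC (FBgn0039830, 3R, 31216145 to 31219630), for the subunit of the rotating ring, had 118, with 71.2 and 55.8 in the replicates. ATPsynbeta (FBgn0010217, 4, 1031484 to 1034917), for the catalytic subunit, had 98.0, with 53.4 and 43.5. ATPsynF had 95.0, with 47.1 and 43.0, and ATPsynCF6, for a part of the peripheral stalk, had 94.7, with 45.7 and 55.2. ATPsynO and ATPsynE followed at 69.2 and 62.2. The other 4 with a candidate had 27.1 to 59.4, and ATPsyndelta had no pooled candidate. The gene for the alpha subunit, blw, is not a member by name and had 258, with 159 and 113.

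The members nearest the threshold were ND-13B (81.9) and UQCR-C2 (82.2) just inside, followed by ND-SGDH (90.8) and ATPsynCF6 (94.7). Just outside were COX8 (77.0), SdhD (76.4), ND-B8 (71.8) and COX7A (69.2).

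In 7 subunit genes no pooled candidate lay within 500 bp of a start site. These were ND-75, ND-B15, ND-PDSW, ND-AGGG, UQCR-11, COX4 and ATPsyndelta. All but ND-AGGG had a weak candidate in at least 1 replicate, from 10.1 at COX4 to 21.6 at ND-B15. ND-AGGG (3L, 24976254 to 24977118) and UQCR-11 (3L, 25120709 to 25126171) lie in the part of arm 3L nearest the centromere. The closest pooled candidate was 252272 bp from ND-AGGG and 396727 bp from UQCR-11, while for the median subunit gene it was 66 bp away. How well reads map in that region was not tested.

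The replicates gave similar, though not identical, sets. Of the members, 18 (20.5%) were among the 4097 strongest peaks of replicate 1 and 18 among those of replicate 2, against 19.8% and 19.1% of all protein-coding genes. The overlap was 15 members (17%), against 14.8% of all protein-coding genes, and these 15 were all thresholded. ND-13B (47.8 and 31.0 in replicates 1 and 2) and ND-SGDH (56.1 and 38.2) were in the top set of replicate 1 alone and thresholded. SdhD was in that of replicate 1 and not thresholded, and SdhC, ND-B8 (29.7 and 41.9) and ATPsynO (23.3 and 48.9) were in that of replicate 2 and not thresholded. Across the 55 members listed in both replicates the signals had a Spearman correlation of 0.72, and across 6596 protein-coding genes it was 0.76. These points share the same 2 libraries and 1 control, so the correlations are descriptive.

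**Figure D2:**
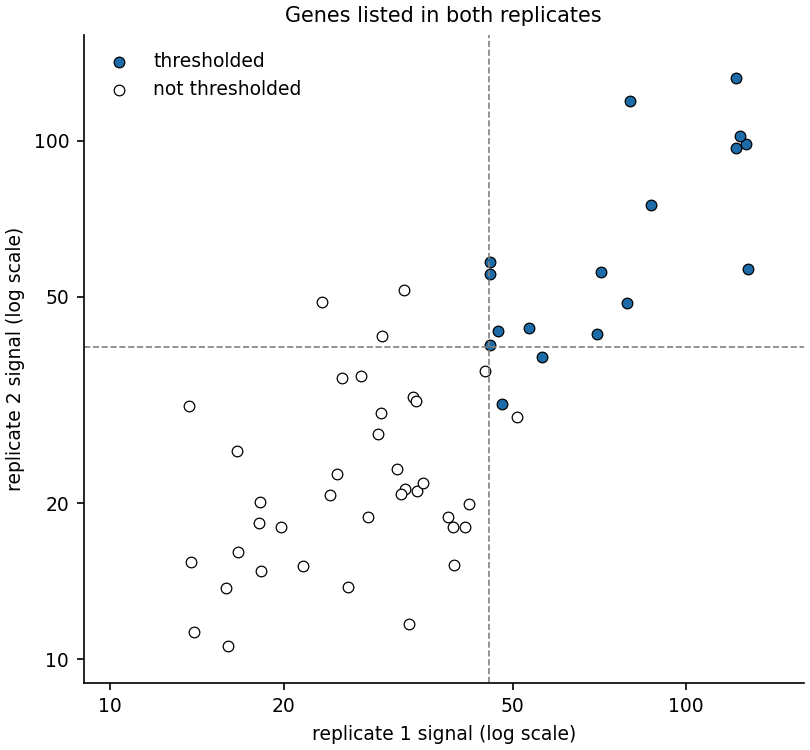
Signal of the best promoter peak in replicate 1 and in replicate 2 (both log scale) for the 55 members listed in both; filled points are thresholded, and dashed lines mark the weakest of the 4097 strongest peaks, 45.5 in replicate 1 and 39.9 in replicate 2. Of the 17 filled points, 15 lie at or above both lines and 2 fall below the line of replicate 2.

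Few L copies had a peak. Of 24, a pooled candidate lay at 3 (12.5%), against 55.6% of all protein-coding genes and 88.9% of the other subunit genes, and none was thresholded. The count depended on the window, with 1 candidate within 200 bp and 10 within 1000 bp, where COX7AL2 was thresholded. All 88 members had 51 and 71 in these windows, and the share of all protein-coding genes was not counted there. The count of L copies was 4 in replicate 2 alone and 7 in replicate 1 alone, against 7757 and 7649 of the 13945 protein-coding genes. UQCR-6.4L (3L, 16566750 to 16567300) had 40.2, with 13.7 and 30.8 in the replicates, from a summit 462 bp into the gene. COX4L had 21.3 and 14.3 in the pooled list and replicate 1, and COX7CL had 21.0 and 15.6, and neither was listed in replicate 2. The values of COX4L and COX7CL are near the foot of the lists. A further 6 had a weak candidate in a replicate only. They were COX7AL2 (16 in replicate 1 and 10.6 in replicate 2), ND-51L1 (15.8), ND-B14.5AL (13.8) and ATPsynepsilonL (12.7) in replicate 1, and COX7AL (14.0) and SdhBL (12.5) in replicate 2. The other 15 were in none of the lists. These were ND-20L, ND-24L, ND-49L, ND-51L2, SdhAL, SdhCL, UQCR-11L, UQCR-14L, COX5BL, COX6AL, COX6AL2, COX6CL, ATPsynCF6L, ATPsynGL and ATPsynbetaL.

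Set beside its partner, the L copy was usually the one without a peak. The 24 L copies have 21 partner genes, of which 19 had a candidate and 6 a thresholded peak. Those 6 peaks, at ND-51, ND-24, levy, COX5B, ATPsynbeta and ATPsynCF6, were all shared with another protein-coding gene. None of the 3 L copy candidates was shared. With each peak given to its nearest gene, ND-51 and COX5B were no longer thresholded, while ND-24, ATPsynbeta and ATPsynCF6 still were. The partner signals therefore cannot be given to the partner genes alone. In 20 of the 24 pairs the partner alone had a candidate, in 2 both had one, in 1 the L copy alone, and in 1 neither. ND-51 had 220 and its copies ND-51L1 and ND-51L2 had no pooled candidate, as was the case for ND-24L beside ND-24 at 192 and for COX6AL and COX6AL2 beside levy at 121. COX5B (113) and COX5BL (2L, 6559431 to 6560133) lie next to each other on the same strand, and the closest candidate to the start of COX5BL was 984 bp away. ATPsynbetaL, on another chromosome than ATPsynbeta (98.0), and ATPsynCF6L, on another arm than ATPsynCF6 (94.7), also had no pooled candidate. COX7C had 65.2 and COX7CL, which follows it on the same strand, had 21.0. In the pooled list, UQCR-6.4L (40.2) above UQCR-6.4 (28.8), and COX4L (21.3) with COX4 at no candidate, went the other way. The replicates were split at both pairs. UQCR-6.4 had 25.9 and 13.8 in replicates 1 and 2, against 13.7 and 30.8 for UQCR-6.4L. COX4L was listed in replicate 1 alone (14.3) and COX4 in replicate 2 alone (10.1). UQCR-11 and UQCR-11L both had no pooled candidate. The nearest candidate summit was a median of 1920 bp from a start site of an L copy, and 10 of the 24 L copies lie inside another protein-coding gene, as do 2 of the 63 other subunit genes.

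**Figure D3:**
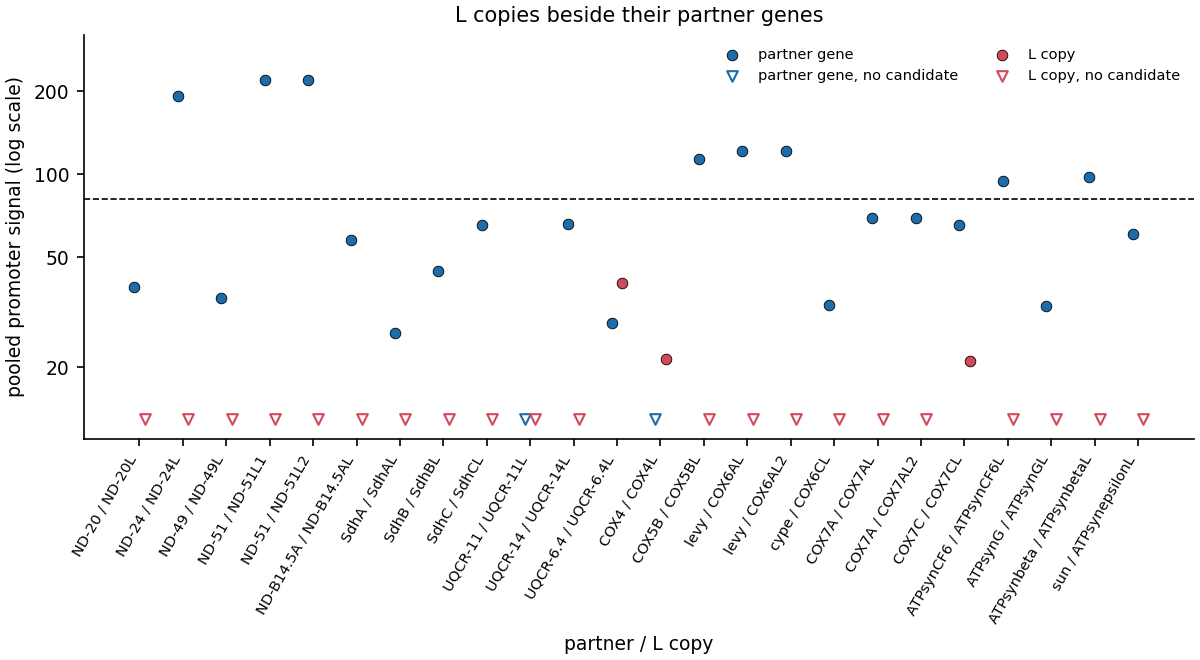
Pooled promoter signal (log scale) of each L copy and its partner gene, 1 column for each of the 24 pairs; open triangles at the foot mark genes with no candidate, and the dashed line is the lowest thresholded signal. Partners reach 220 and the highest L copy 40.2, and in 20 columns the L copy alone is at the foot.

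Sharing of promoters was frequent among the subunit genes. A start site of a protein-coding gene on the opposite strand, pointing away, lay within 1000 bp upstream of 63.5% of the 63 subunit genes, 16.7% of the L copies and 36.2% of all protein-coding genes. The best candidate of 34 of the 56 subunit genes with a candidate (60.7%) also lay within 500 bp of a start of another protein-coding gene, against 42.0% of all genes with a candidate. Such a peak cannot be given to one gene or the other. With each peak given to its nearest gene alone, 9 members were thresholded, and with shared peaks left out, 4 were. Of the 17 thresholded peaks, 13 were shared (76.5%), against 54.0% of all thresholded genes. The 4 that were not were at ND-B17, ATPsynC, UQCR-C2 and ND-13B, of which the strongest had 119. Shared peaks were thresholded at 13 of 34 subunit genes (38.2%) and unshared ones at 4 of 22 (18.2%), against 45.3% and 28% of all genes with a candidate. In each class the share for the subunit genes was the lower one.

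The genes across the shared peaks had varied roles, and how many serve mitochondria was not counted. Distances between starts given here are the smallest between any starts of both genes, which need not be those nearest the peak. ND-ASHI shared its peak with Fum1, which encodes fumarase of the citric acid cycle. Their closest starts are 164 bp apart, but these do not flank the peak. The summit lay 262 bp upstream of the nearest ND-ASHI start and 260 bp upstream of the nearest Fum1 start. ND-42 shared its peak with Cchl, which encodes the lyase that attaches haem to cytochrome c, 229 bp away. ND-B16.6 (23.7) faced kdn, the citrate synthase gene, and ATPsynD (27.1) faced mRpL55, a mitochondrial ribosomal protein gene. Other shared peaks joined a subunit gene to a gene known for another role or to one described here by its symbol alone. ND-24 faced corolla, which encodes a protein of the synaptonemal complex, 42 bp away, COX5A faced glo, 20 bp away, and ND-51 faced CG13994. ND-MWFE (2R, 13158666 to 13160190) faced TppII, a peptidase gene, COX5B faced IFT52, of intraflagellar transport, and COX7B faced Sec3, of the exocyst. COX6B shared its peak with Rpp20, CG33932 and CG18809. ATPsynCF6 faced Sec13, ATPsynF faced CG3548, ATPsynbeta faced CG11076 and ND-SGDH faced RhoGAP68F.

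**Figure D4:**
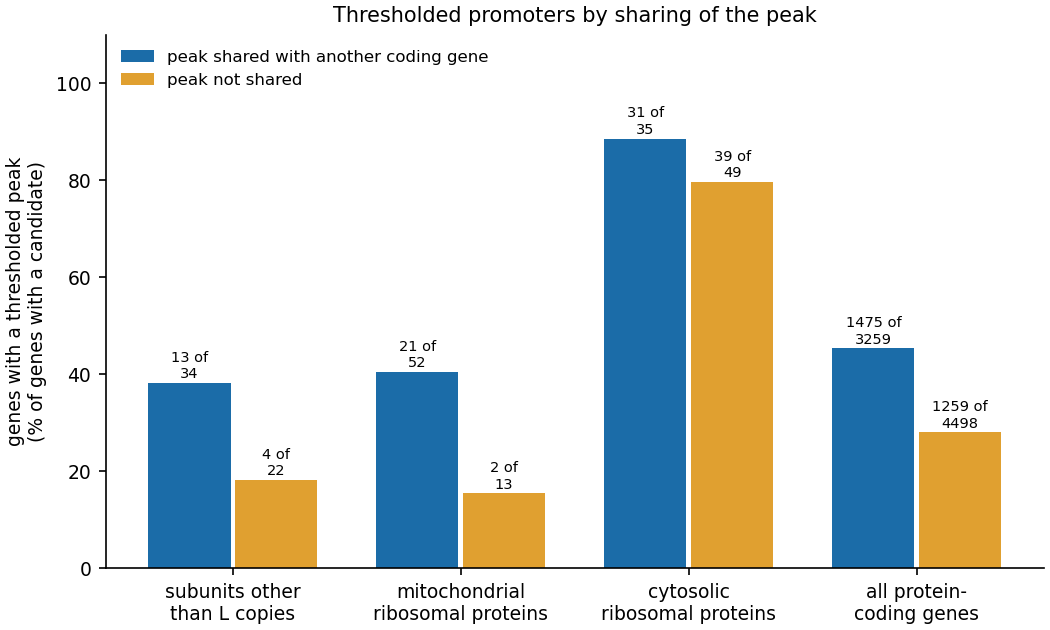
Percentage of genes with a candidate that had a thresholded peak (y axis), for peaks shared with another protein-coding gene (blue) and not shared (orange), among subunit genes, mitochondrial and cytosolic ribosomal protein genes and all protein-coding genes, with the counts over each bar. Bars for the subunit genes are 38.2% and 18.2%, both below those for all protein-coding genes at 45.3% and 28%.

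Thresholded summits at the subunit genes lay mostly upstream of the start. The median position was -90 bp, and 15 of 17 were upstream (88.2%), against a median of -95.5 bp and 80.1% for all genes with a thresholded peak. The exceptions were UQCR-C2 and ATPsynC, each at 42 bp downstream. In complex I all 8 thresholded summits were upstream, from 7 bp at ND-13B to 323 bp at ND-42. Positions were counted from the start site nearest the summit, and at ND-24, COX5A and ATPsynbeta this is an internal start, so that these summits lie inside the gene. Over all 56 subunit genes with a candidate, 31 summits (55.4%) were within 100 bp of the start, against 45.5% of all genes with a candidate.

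**Figure D5:**
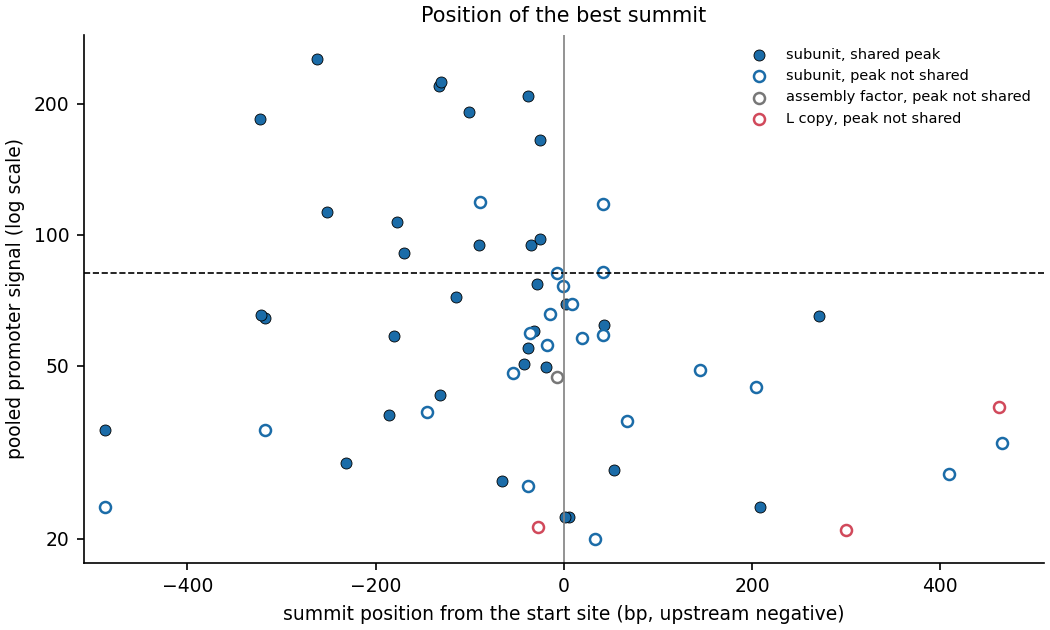
Position of the best pooled summit from the start site (bp, upstream negative) and its signal (log scale) for the 60 members with a candidate; filled points are peaks shared with another protein-coding gene, open points are not, and the dashed line is the lowest thresholded signal. The points over 150 are all filled and all upstream, from 25 bp at COX6B to 323 bp at ND-42.

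Core promoter motifs were counted in the 300 bases from 250 before to 50 after the outermost start. GGTCACACT, the core of the element called Motif 1, was in 22.2% of the 63 subunit promoters and 6.05% of all 13945 protein-coding promoters. It was in 6 of the 17 promoters with a thresholded peak (35.3%), against 8.92% of all genes with one, and in 8 of the other 46 (17.4%). TATCGATA, the DNA replication-related element (DRE), was in 0 of the 17 and in 9 of the 46 (19.6%), against 14.6% of all promoters with a thresholded peak and 9.36% of all promoters. CGATA, which TATCGATA contains, was in 70.6% of the 17, 56.1% of all promoters with a thresholded peak and 47.4% of all promoters. CACGTG was in 0 of the 17 and CACGCG in 3, or 17.6%, against 5.23% and 6.80% of all promoters with a thresholded peak. Within 100 bases of the thresholded summit CACGCG was at 1 of the 17 (5.88%), against 5.84% for all protein-coding genes with a thresholded peak. GAGAG was in 15.9% of the subunit promoters, 41.7% of the L copy promoters and 29.7% of all promoters. CCAAT was in 49.2% and 46.7% of subunit promoters and all promoters. GCGCATGC and CCGGAAGT, core sites of Ewg and of Ets factors, were in 0 of the 63 and in 146 and 53 of all promoters. Among L copies, GGTCACACT was in 1 of 24 promoters, at COX7AL, and TATCGATA in 0. Motif counts over so few promoters are descriptions, and neither binding to the motifs nor the summit's distance to them was tested.

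The copies of Motif 1 at thresholded members are shown with 10 bases on either side, on the strand that reads GGTCACACT, whose 9 letters are in capitals.
ND-B17 (chr2L:15751075-15751103): ttaagagtgcGGTCACACTggcggcaaca
COX5A (chr3R:11819313-11819341): atttaattgcGGTCACACTgcatcttcaa
COX5B (chr2L:6557802-6557830): actttaccgcGGTCACACTgatccatagc
COX7B (chr3L:17425476-17425504): acaacacaacGGTCACACTgttcaacaca
ATPsynC (chr3R:31219778-31219806): ctactgttatGGTCACACTgcgcctattg
A sixth copy, at ND-MWFE, is not printed. Counted along the gene from its outermost start, the first base of the motif lay at -15 in ND-B17, -36 in COX5A, 13 in COX5B, 10 in COX7B, 25 in ND-MWFE and -166 in ATPsynC. Within 100 bases on either side of the summit, a shorter window than the promoter, the motif was at 5 of the 56 subunit summits (8.93%) and 4.64% of all promoter summits. For thresholded summits alone it was at 1 of 17 (5.88%) and 4.58%.

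Of 45 other genes of the pathway in the annotation, 39 had a candidate and 15 a thresholded peak (33.3% of all and 38.5% of those with a candidate). The shares were 27% and 30.4% for the 63 subunit genes and 19.6% and 35.2% for all protein-coding genes, and no difference was tested. Of the 15, 6 were citric acid cycle genes, and 9 (60%) had a peak shared with another protein-coding gene, against 54.0% of all thresholded genes. CIA30, for an assembly factor of complex I, had the highest signal at 691, with 419 and 272 in the replicates, above every member. This peak is shared with CG7601, whose start lies 220 bp upstream on the opposite strand. Cyt-c-d, a cytochrome c gene known for its role in the male germ line, had 262, with 100 and 170, from a summit 358 bp downstream of an internal start site in a peak shared with CG31808. Its neighbour Cyt-c-p, which encodes the main cytochrome c of the body, had 48.5. Of the subunit genes with other names, blw (258), Cyt-c-d, levy (121) and ox (104) were thresholded and 5 others were not. The peak of levy is shared with wmd and that of ox with Dgkepsilon. The citric acid cycle genes had 6 of 11, led by Fum1 (254) in the peak it shares with ND-ASHI. Next was mAcon1 (218), the aconitase gene, in a peak shared with CG43345 and CG43346. The carriers and the channel gene porin had 0 of 5, and the highest of them were porin (79.8) and sesB (75.1), an adenine nucleotide carrier gene. Regulators of mitochondrial genes had 3 of 11, led by mtSSB (219), and TFAM, which encodes the mitochondrial DNA packaging factor, had 25.3.

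Beside the ribosomal protein genes, the subunit genes were nearer in share to the mitochondrial set, though no difference was tested. Mitochondrial ribosomal protein genes had a thresholded peak at 23 of 73 (31.5%) with a median candidate signal of 70.9, and the 63 subunit genes at 17 (27.0%) with a median of 59.7. Cytosolic ribosomal protein genes had one at 70 of 92 (76.1%) with a median of 192. For all protein-coding genes the share was 19.6% and the median 60.1. Among genes with a candidate, the thresholded shares were 30.4% for the subunit genes and 35.4% for the mitochondrial set. They were 83.3% for the cytosolic set and 35.2% for all genes, so the first 2 sets were near or below the share of all genes.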

How the data were processed

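ChIP-seq peak lists of 2 replicates, which the labels call biological, and of their pool were used. Per the deposited file records, each was called against the same control as input for the IDR procedure, and a further list holds the optimal peaks past its threshold. The sources used here do not give the caller, the aligner or the threshold. The deposited signal is the authors' peak value. Summits, given by the authors as an offset from the peak start, were in the middle of 95.8% of pooled peaks. Lists on dm3 were not used. Genes and start sites came from Ensembl release 115 (6.54), without transposable elements and pseudogenes, and sequence from RefSeq's Release 6 genome, both of the dm6 build. For each gene the highest-signal peak with a summit within 500 bp of any transcript start was kept. Python 3.11.15, pandas 2.3.3 and NumPy 2.4.6 were used, and peak assignment was tested on simulated data. Members and lists were chosen with earlier results of these data known. Genes named were the 6 strongest of each complex, all L copies with their partners, members with no candidate, the 4 on either side of the threshold, those that differed between replicates, and the strongest pathway genes. Others named, such as TFAM, were chosen after their values were seen. With 1 group no test was made. Alternatives were other promoter windows, start sites, assignments and thresholds, and each replicate alone.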

Additional observations from a re-analysis of the deposited data

How the results depend on the processing

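Of the recomputed values, 67 stayed within 1.5 times the reported count or within the spread between replicates, and 32 moved. The 17 thresholded members fell to 5 in the 1000 strongest peaks, where complexes I, III, IV and V had 4, 0, 1 and 0 and the share of all genes with a candidate was 9.93%. They were 11 where the peak had to overlap the start site (complex I 3, all genes 31.5%), and 9 with each peak given to the nearest gene alone (complex I 3, complex IV 2, median signal 48.2, all genes 30.5%). With outermost starts alone the share of all genes was 33.0%. With peaks at 1 protein-coding gene alone, a setting chosen after seeing the data, 4 thresholded members and 32 with a candidate remained, complexes I, IV and V had 2, 0 and 1, the median was 39.6 and the share of all genes 25.9%. Within 1000 bp, complex II gained 1 (SdhA), and L copies had 10 candidates and 1 thresholded peak (COX7AL2). L copies had 1 candidate within 200 bp and 1 by overlap. The share of all protein-coding genes with a candidate was not counted in these settings. Each replicate alone, read at its 4097 strongest peaks, gave 18 members, medians of 23.6 to 32.4 on their own scales, 1 to 1 for complex II and 4 to 7 L copies with a candidate, the highest without replicate 2. No paired analysis was possible because there is 1 group. Depth is unknown, and lists end at a fixed number of peaks, so an absent peak is not absent binding.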
